A study of Mus musculus with 7 samples.

Results

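The genes Cxcl9, Cxcl10, Cxcl11, Cxcl16, Ccl17, Ccl22, Il15 and Il15ra were followed by name in RNA of sorted tumour macrophages. They encode chemokines that attract T cells, the cytokine interleukin-15 and its alpha receptor chain. All 8 were found among the 53379 genes of the count table, and all 8 were among the 16234 genes that were tested. The series compared macrophages of C57BL/6J mice that were wild-type for Gpr65 (4 mice) or carried a Gpr65 knockout (3 mice), with 1 library per mouse. Gpr65 is a receptor for extracellular protons on immune cells. All 7 mice were fed a high-fat diet, bore a tumour of the mouse colon carcinoma line MC38 and were sampled 21 days after implantation, and the cells were sorted as positive for CD45, CD11b and F4/80. The age and sex of the mice, the form of the knockout allele and whether it was limited to some cell types are not stated in the labels, and no group without a tumour or on another diet was analysed here.

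Cxcl9, Cxcl10 and Cxcl11 are ligands of Cxcr3, the receptor of activated T cells and NK cells, and macrophages make them in response to interferons, with interferon gamma as the main inducer of Cxcl9. Cxcl16 is made as a membrane protein that also takes up oxidised lipoprotein, is shed by Adam10, and attracts cells with Cxcr6. Ccl17 and Ccl22 are ligands of Ccr4, which regulatory T cells and type 2 helper T cells carry, and dendritic cells are a major source of both. Interleukin-15 supports NK cells and memory CD8+ T cells, and it is held on the surface by Il15ra and presented from there to the Il2rb and Il2rg chains of neighbouring lymphocytes. C57BL/6 mice carry a Cxcl11 allele with a frameshift, and the annotation lists the gene as a polymorphic pseudogene, so its RNA is given here without a statement on protein.

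The genes fall into neighbour groups in the genome (build GRCm38). Cxcl9 (chr5:92321347-92328079), Cxcl10 (chr5:92346638-92348889) and Cxcl11 (chr5:92359544-92365485) lie on the minus strand within 44.1 kb. Ccl22 (chr8:94745590-94751699) and Ccl17 (chr8:94810453-94812036) lie on the plus strand within 66.4 kb, with the chemokine gene Cx3cl1 between them. Il15 (chr8:82331632-82403222, minus strand), Il15ra (chr2:11705290-11734317, plus strand) and Cxcl16 (chr11:70453983-70459984, minus strand) stand apart. The stretches before the start of Cxcl9, Cxcl10, Ccl22 and Ccl17 are printed because these are 2 pairs of neighbours whose levels are set side by side in the results. Each holds the 250 bases before the start, 5′ to 3′ on the strand of the gene, from RefSeq on GRCm38.p6, and capitals mark motif matches. For Ccl22 the RefSeq start lies 94 bases inside the gene as placed above by GENCODE, so the last 94 bases of its stretch are within that gene model, and the starts of the other 3 are the same in both.
Cxcl9 (chr5:92328080-92328329, minus strand): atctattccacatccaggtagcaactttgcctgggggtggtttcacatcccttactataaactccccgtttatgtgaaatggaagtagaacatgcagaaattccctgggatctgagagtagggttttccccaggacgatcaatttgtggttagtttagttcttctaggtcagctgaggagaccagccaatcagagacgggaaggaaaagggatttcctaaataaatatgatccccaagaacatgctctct
Cxcl10 (chr5:92348890-92349139, minus strand): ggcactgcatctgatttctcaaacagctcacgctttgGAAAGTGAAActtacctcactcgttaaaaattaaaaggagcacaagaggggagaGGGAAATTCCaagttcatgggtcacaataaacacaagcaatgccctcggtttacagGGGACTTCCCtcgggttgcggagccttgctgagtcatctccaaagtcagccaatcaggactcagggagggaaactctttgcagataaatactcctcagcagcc
Ccl22 (chr8:94745434-94745683, plus strand): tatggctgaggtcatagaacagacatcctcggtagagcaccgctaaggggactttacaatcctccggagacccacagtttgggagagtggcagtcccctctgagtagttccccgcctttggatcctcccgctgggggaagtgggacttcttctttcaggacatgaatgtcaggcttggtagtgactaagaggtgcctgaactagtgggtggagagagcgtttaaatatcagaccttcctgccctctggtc
Ccl17 (chr8:94810203-94810452, plus strand): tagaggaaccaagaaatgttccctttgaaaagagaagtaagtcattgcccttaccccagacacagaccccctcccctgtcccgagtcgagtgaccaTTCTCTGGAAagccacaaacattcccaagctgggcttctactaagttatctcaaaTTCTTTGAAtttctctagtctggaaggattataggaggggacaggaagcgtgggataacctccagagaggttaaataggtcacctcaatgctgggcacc

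Motifs were searched on both strands. The sequence GAAA repeated after any 2 bases, a core of the interferon response element, was present in 2.98% of 32851 such stretches in the genome, and Cxcl10 held 1 match at -213 to -204 from its start. The NF-kB consensus was present in 3.90% of stretches and matched Cxcl10 at -159 to -150 and at -103 to -94. TTCNNNGAA, a form of the gamma-activated site bound by STAT factors, was present in 7.02% of stretches and matched Ccl17 at -99 to -91. TTC and GAA with any 4 bases between them, the spacing preferred by STAT6, was present in 5.85% and matched Ccl17 at -154 to -145. None of the 5 matches overlapped another. Cxcl9, Ccl22 and the 2 stretches listed for Il15ra held no match to these letters in this window. Of the 8 genes, 5 were in the RefSeq table, and Cxcl11, Cxcl16 and Il15 were not among them.

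The libraries held between 22449772 and 30483733 counts. Gpr65 measured 65.2 to 112 CPM (counts relative to the library total, scaled by the trimmed mean of M values) in wild-type mice and 0.683 to 1.10 CPM in knockout mice, with 20 to 30 counts left in each knockout library. The macrophage markers, 8 of 8 detected, summed to 7167 to 9007 CPM in wild-type and 7472 to 13966 CPM in knockout libraries. Knockout 1 stood apart from the others: 940 of the tested genes had 0 counts there, compared with 51 to 281 in the other 6 libraries. Knockout 2 had the lowest scaling factor (0.807) and the highest macrophage sum. In bulk RNA of sorted cells, fewer cells of a type and less RNA per cell cannot be told apart. Among 13 marker sums and library measures the lowest p was 0.20 and the lowest adjusted p 0.74 (exact permutation test over 35 splits, two-sided). The smallest p this design allows is 0.029, so that after adjustment over 13 a single measure could not pass 0.05.

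Levels between genes were compared per kilobase of exon. Cxcl16 was the most abundant, with 296 ± 46.3 CPM per kb (SD, n = 4) in wild-type and 374 ± 148 CPM per kb (SD, n = 3) in knockout macrophages, and it lay above Cxcl10 in all 7 libraries. Cxcl10 followed with 103 ± 24.3 and 175 ± 26.0 CPM per kb. Ccl17 (109 ± 127 and 56.4 ± 72.1 CPM per kb) and Cxcl9 (37.1 ± 23.2 and 131 ± 105 CPM per kb) were not separated from their neighbours in this order, since Cxcl10 exceeded Ccl17 in 5 of 7 libraries and Ccl17 exceeded Cxcl9 in 3 of 7.

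Per kilobase the lower genes were Ccl22 (14.6 ± 16.1 CPM per kb in wild-type and 7.04 ± 6.28 in knockout), Il15 (4.55 ± 0.922 and 8.12 ± 3.84), Il15ra (2.89 ± 1.19 and 3.74 ± 0.375) and Cxcl11 (1.39 ± 0.597 and 2.35 ± 1.84). Ccl22 exceeded Il15 in 4 of 7 libraries, while Cxcl9 exceeded Ccl22, Il15 exceeded Il15ra and Il15ra exceeded Cxcl11 in 6 of 7 each. With the length of 1 reference transcript in place of the merged exons, Il15ra ranked above Il15, so their order rests on the gene model. By that length Cxcl16 exceeded Cxcl10 in 6 of 7 libraries, with 281 against 314 CPM per kb in knockout 1, and the ratio of their means was 1.33 in place of 2.45. The place of Ccl17 changed from library to library.

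**Figure D1:**
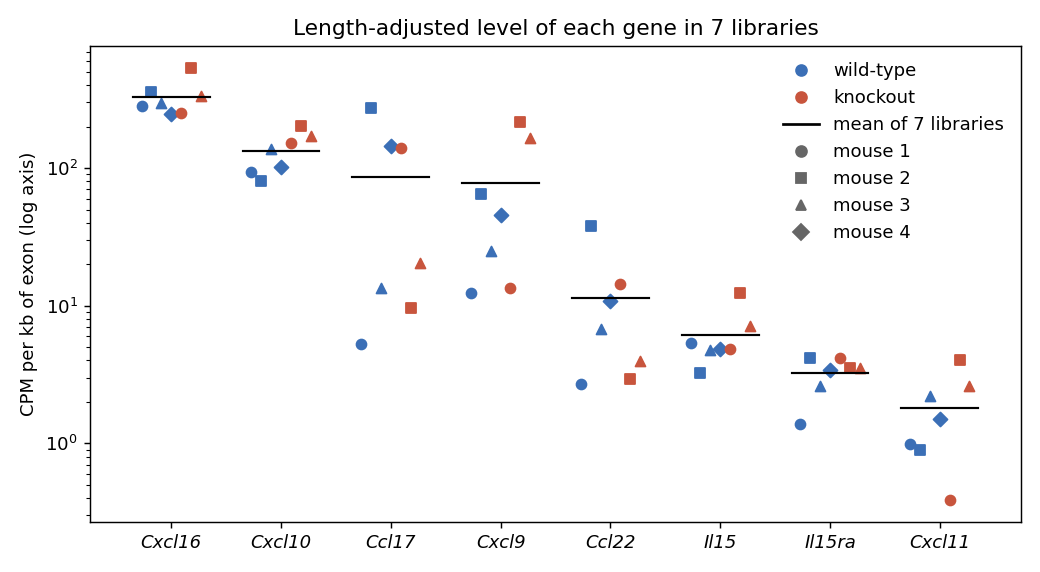
Level of each gene in CPM per kilobase of merged exon (log axis), ordered by the mean of 7 libraries (black line); points are single libraries, coloured by genotype and shaped by mouse number. Cxcl16 lies above Cxcl10 in every library, and the 7 points of Ccl17 spread from 5.26 to 274 CPM per kb.

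The comparison of knockout with wild-type macrophages addressed how loss of Gpr65 relates to the RNA of these lymphocyte attractants. None of the 8 genes passed an adjusted p of 0.05 in edgeR's quasi-likelihood test, in a comparison that called 0.037% of tested genes (0.0246% higher and 0.0123% lower in knockout). At an unadjusted p under 0.05 there were 3 of 8 (Cxcl9, Cxcl10 and Il15), all higher in knockout, where 5.37% of all genes reached it and 2.57% were higher. DESeq2 called 0 of 8 (0.607% of all genes) with 2 of 8 at an unadjusted p under 0.05 (4.78% of all genes), and limma voom called 0 of 8 (0.0554%) with 3 of 8 at an unadjusted p under 0.05 (9.83%). The fold change was positive for 6 of 8 genes (49.7% of all genes) with a median of 0.56 on the log2 scale, against -0.0016 over all genes, and negative for Ccl17 and Ccl22. The groups did not overlap for 1 of the 8, Cxcl10, whose knockout libraries all lay above the wild-type ones. That holds for 2.8% of all genes, the reverse for 3.33%, and either for 6.12%.

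**Figure D2:**
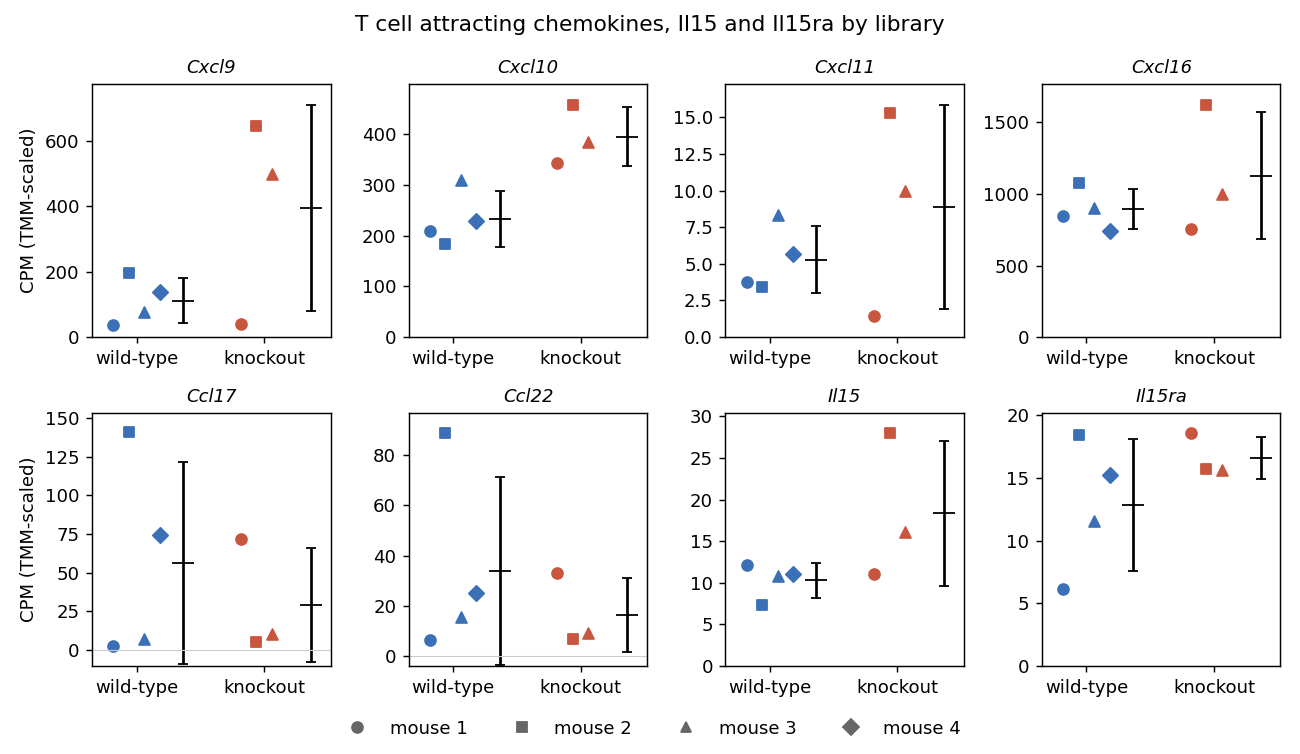
CPM of each gene in every library, with the mean and SD of each genotype beside the points; colour is genotype and shape is mouse number. Each knockout library lies above each wild-type library for Cxcl10, and knockout 1 lies near or below wild-type libraries for Cxcl9, Cxcl11, Cxcl16 and Il15.

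Among the Cxcr3 ligands, Cxcl10 was the one measured most evenly within each genotype. It measured 209, 183, 310 and 229 CPM in wild-type mice 1 to 4 and 343, 458 and 384 CPM in knockout mice 1 to 3. The lowest knockout library lay above the highest wild-type library. The means were 233 ± 54.7 CPM (SD, n = 4) and 395 ± 58.5 CPM (SD, n = 3). The log2 fold change was 0.76 (SE 0.21, 95% interval 0.28 to 1.24, edgeR adjusted p = 0.74), a fitted 1.70-fold. With 1 library left out at a time it stayed between 0.64 and 0.92, and the lowest adjusted p over 16 alternatives was 0.12, by DESeq2.

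Cxcl9 measured 37.3, 196, 75.4 and 138 CPM in wild-type mice 1 to 4. In knockout mice 1 to 3 it measured 40.5, 647 and 499 CPM. Knockout 2 and knockout 3 lay above every wild-type library, and knockout 1 lay below 3 of the 4. The highest library exceeded the lowest 17.4-fold, against 2.51-fold for Cxcl10. The log2 fold change was 1.82 (SE 0.80, 95% interval 0.013 to 3.63, edgeR adjusted p = 0.92), and it was 2.33 (adjusted p = 0.19) without knockout 1 and 1.27 (adjusted p = 1.00) without knockout 2. Per kilobase, Cxcl9 lay above Cxcl10 in 1 library, knockout 2 (215 against 204 CPM per kb), and in knockout 1 it stood at 13.4 against 152. By the length of 1 reference transcript it lay above Cxcl10 in 0 of 7 libraries, with 224 against 419 CPM per kb in knockout 2.

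Cxcl11 had few counts, from 43 in knockout 1 to 376 in knockout 2. It measured 3.74, 3.40, 8.33 and 5.70 CPM in wild-type mice 1 to 4, and 1.47, 15.3 and 9.96 CPM in knockout mice 1 to 3. As for Cxcl9, knockout 2 and knockout 3 held the highest values and knockout 1 a low one. The log2 fold change was 0.75 (SE 0.65, 95% interval -0.73 to 2.22, edgeR adjusted p = 1.00). Without knockout 2 it was 0.11 and without knockout 1 it was 1.24. Cxcl10 and Cxcl11 lie within Art3, a gene of the opposite strand with 372 counts over all libraries, against 57124 for Cxcl10 and 1275 for Cxcl11. The labels name no strand setting for the counts, and reads of the 2 strands cannot be told apart.

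Cxcl16, the transmembrane chemokine, measured 849, 1078, 901 and 744 CPM in wild-type mice 1 to 4. It measured 759, 1625 and 1003 CPM in knockout mice 1 to 3. Knockout 2 was the highest of all libraries, and the other 2 knockout libraries lay within the wild-type range. The log2 fold change of 0.34 (SE 0.27, 95% interval -0.27 to 0.95, edgeR adjusted p = 1.00) was -0.023 without knockout 2. Cxcl16 overlaps Zmynd15 of the opposite strand by 552 bases, and Zmynd15 had 72367 counts against 185293 for Cxcl16. Zmynd15 measured 208 to 377 CPM in wild-type and 260, 702 and 663 CPM in knockout libraries, and the part of either count that came from the shared bases was not tested.

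Ccl17 and Ccl22, the Ccr4 ligands, differed more between mice of 1 genotype than between the genotypes. Ccl17 measured 2.70, 141, 6.90 and 74.3 CPM in wild-type mice 1 to 4 and 71.7, 4.92 and 10.4 CPM in knockout mice 1 to 3. Within the wild-type group the highest library exceeded the lowest 52.1-fold. Ccl22 measured 6.32, 88.8, 15.6 and 25.2 CPM in the 4 wild-type mice, against 33.2, 6.79 and 9.15 CPM in the knockout mice, a 14.0-fold range within the wild-type group. For both genes wild-type 2, wild-type 4 and knockout 1 were the 3 highest libraries and wild-type 1 and knockout 2 the 2 lowest. The log2 fold changes were -0.95 (SE 1.30, 95% interval -3.90 to 1.99) for Ccl17 and -1.05 (SE 0.87, 95% interval -3.01 to 0.91) for Ccl22, each with an edgeR adjusted p of 1.00. Without wild-type 2 they were 0.05 and 0.06, and without knockout 1 they were -2.90 and -2.12 (adjusted p = 0.65 and 0.58). Cx3cl1, which lies between them, measured 3.45, 7.33, 4.11 and 2.38 CPM in wild-type and 2.36, 0.814 and 3.90 CPM in knockout mice, with wild-type 2 the highest and knockout 2 the lowest.

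Markers of other cell types were set beside these values. The full migratory dendritic cell list was highest in wild-type 2 (795 CPM), knockout 3 (760 CPM) and knockout 2 (753 CPM), with Zmynd15, which overlaps Cxcl16, the larger part in both knockout libraries. Without Zmynd15, a removal chosen after seeing the data, the list summed to 50.4, 575, 95.8 and 153 CPM in wild-type mice 1 to 4 and to 103, 50.8 and 97.0 CPM in knockout mice 1 to 3. In that form its 3 highest libraries were wild-type 2, wild-type 4 and knockout 1 and its 2 lowest wild-type 1 and knockout 2, as for Ccl17 and Ccl22. Knockout 1 (103 CPM) lay close to knockout 3 and wild-type 3, however. Of the single markers left, Socs2 and Fscn1 had the same 3 highest libraries, and Ccr7, Cacnb3, Apol7c, Nudt17 and Il4i1 did not. Apol7c made up 227 CPM of the sum in wild-type 2 and 0.034 CPM in knockout 1. Of the 8 listed markers 7 were tested and 0 passed, and Il4i1 stayed under 1 CPM in every library. Ccr7, the receptor that guides dendritic cells to lymph nodes, measured 16.7 to 170 CPM in wild-type and 20.7 to 37.9 CPM in knockout libraries. The conventional dendritic cell markers, 7 of 7 detected, summed to 31.9 to 105 CPM in wild-type and 64.9 to 73.1 CPM in knockout libraries, in another order, with wild-type 4 (62.1 CPM) sixth of 7. Tumour and epithelial markers, 3 of 7 under 1 CPM in every library, summed to 126, 380, 136 and 451 CPM in wild-type mice 1 to 4. In knockouts 1 to 3 they summed to 168, 41.9 and 78.0 CPM. Wild-type 4, wild-type 2 and knockout 1 were highest and knockout 2 lowest. Nearly all of that sum was 1 gene, Cdh1, at 123, 375, 131 and 437 CPM in wild-type and 167, 37.6 and 76.0 CPM in knockout mice. Epcam measured 1.61 to 5.30 CPM, so the order of this sum is that of Cdh1. The part of any of these cells in the Ccl17 and Ccl22 values was not tested.

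**Figure D3:**
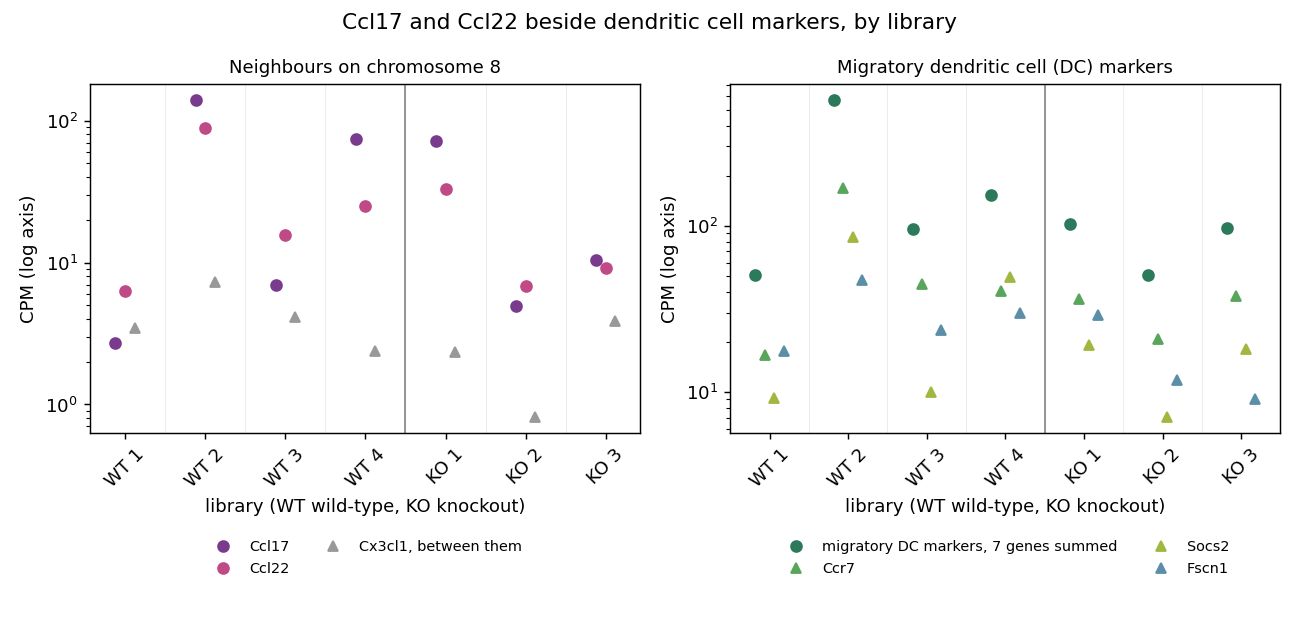
CPM (log axis) in each library of Ccl17, Ccl22 and Cx3cl1 (left) and of migratory dendritic cell markers (right), where the sum leaves out Zmynd15. That removal was chosen after seeing the data, and the full sum is 795 CPM in wild-type 2, 753 in knockout 2 and 760 in knockout 3. Of the single markers only Ccr7, Socs2 and Fscn1 are drawn. Cacnb3, Apol7c, Nudt17 and Il4i1, whose set of highest libraries differs from that of Ccl17 and Ccl22, are not. Wild-type 2 has the highest Ccl17 (141 CPM), Ccl22 (88.8 CPM) and marker sum (575 CPM).

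Il15 measured 12.1, 7.29, 10.8 and 11.0 CPM in wild-type mice 1 to 4. It measured 11.0, 27.9 and 16.1 CPM in knockout mice 1 to 3. Knockout 2 and knockout 3 lay above all wild-type libraries, and knockout 1 lay among them. The log2 fold change was 0.83 (SE 0.33, 95% interval 0.085 to 1.58, edgeR adjusted p = 0.92), and it ranged from 0.39 without knockout 2 to 1.08 without knockout 1 (adjusted p = 0.22).

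Il15ra, which binds interleukin-15 in the same cell and carries it to the surface, measured 6.16, 18.4, 11.5 and 15.2 CPM in wild-type mice 1 to 4. In knockout mice 1 to 3 it measured 18.6, 15.7 and 15.6 CPM. The knockout libraries lay close together and the wild-type libraries spread 3.00-fold, with wild-type 1 the lowest, and the groups overlapped. The log2 fold change was 0.37 (SE 0.34, 95% interval -0.40 to 1.14, edgeR adjusted p = 1.00), and it was 0.12 without wild-type 1. The library with the lowest Il15, wild-type 2, thus had the second highest Il15ra.

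**Figure D4:**
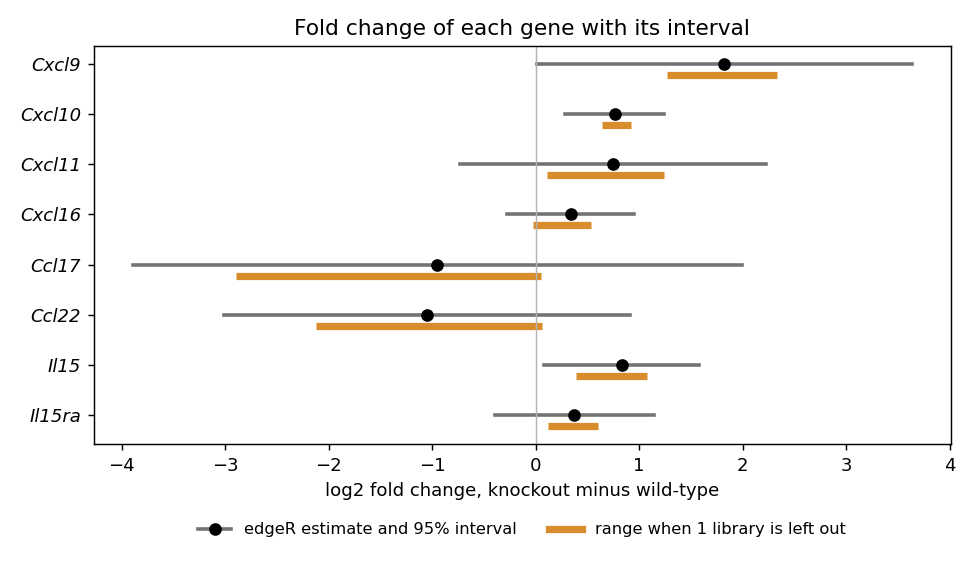
Log2 fold change of knockout minus wild-type for each gene, with the 95% interval (grey) and the range of estimates when 1 library is left out (orange). The intervals of Cxcl9, Cxcl10 and Il15 lie above 0 before adjustment over all genes, and the leave-out ranges of Cxcl16, Ccl17 and Ccl22 cross 0.

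Across the libraries the genes did not form 1 common pattern. Knockout 2 held the highest value of Cxcl9, Cxcl10, Cxcl11, Cxcl16 and Il15, and the second lowest of Ccl17 and Ccl22. Over the 7 libraries 21 pairs of genes were compared on the log2 CPM scale, leaving out Ccl17, whose libraries lie in 2 sets far apart. No pair passed after adjustment. The smallest p was that of Cxcl10 with Il15 (Pearson r = 0.81, exact permutation p = 0.013, adjusted p = 0.27; Spearman rho = 0.75, exact permutation p = 0.066, adjusted p = 0.49). Without wild-type 2 and knockout 2, the libraries farthest from the median of Cxcl10, r was 0.45, and without knockout 1 it was 0.88. Leaving out the most extreme libraries narrows the range and can lower r by itself, so the 0.45 does not decide what the relation rests on. Cxcl9 and its neighbour Cxcl10 had r = 0.47 (exact permutation p = 0.28, adjusted p = 0.42) and rho = 0.50 (exact permutation p = 0.27, adjusted p = 0.56), and r was -0.05 without wild-type 1 and knockout 2. With 4 and 3 libraries a genotype is too small for a correlation of its own.

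The genes whose log2 CPM followed each gene most closely over the 7 libraries were taken from 8443 genes by Pearson's r, as a description. For Cxcl9 they were the interferon-inducible GTPase Gbp2b (r = 0.99, 15.1 CPM in wild-type and 127 CPM in knockout), Chd8 (0.99) and the peptide transporter subunit Tap2 (0.99). For Cxcl10 they were Otud1 (0.98), the sialophorin gene Spn (0.97) and Xcr1 (0.96), the chemokine receptor of cross-presenting dendritic cells. Xcr1 measured 4.32 to 8.86 CPM in wild-type and 10.7 to 20.4 CPM in knockout libraries, with a log2 fold change of 1.42 (edgeR adjusted p = 0.66). Its groups did not overlap, as 2.8% of all genes did with knockout higher. It was picked for its likeness to Cxcl10, whose groups do not overlap either, so this is no separate result. For Cxcl16 they included Ifngr2 (0.99), a chain of the interferon gamma receptor, with Saraf (0.99) and Ier5 (0.99). For Ccl17 they were Zcchc9 (0.99), Ccl24 (0.99), an eosinophil attractant of alternatively activated macrophages, and Diaph1 (0.98). The libraries of Ccl17 lie in separate sets far apart, so a high r can come from that split alone. Ccl24 measured 861 CPM in wild-type and 133 CPM in knockout mice on average, and did not pass (log2 fold change -2.69, edgeR adjusted p = 1.00). Il15 was followed most closely by the folate transporter gene Slc46a1 (0.98), Lipa (0.98), the lysosomal acid lipase, and Slc25a12 (0.97).

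The list of closest genes changed with knockout 1 left out, when 1 of 3 remained for Cxcl9, Cxcl10, Ccl22 and Il15 and 0 of 3 for Cxcl11 and Il15ra. For Cxcl11 the closest included Cables2 (0.97) and Chpf2 (0.97), for Ccl22 Snx12, Phf5a (each 0.97) and Uqcrfs1 (0.96), and for Il15ra Eif4e3, Tnfsf12 (each 0.97) and Atxn7l3b (0.96). Of these, Slc25a12 and Eif4e3 had r = 0.61 and 0.59 without the 2 libraries farthest from the median of the gene they follow.

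Receptors of these ligands were present at levels that differed widely between mice. Cxcr3 measured 7.82, 4.13, 9.22 and 3.62 CPM in wild-type mice 1 to 4 and 3.55, 47.8 and 17.0 CPM in knockout mice 1 to 3. Il2rb, the signalling chain shared by interleukin-2 and interleukin-15, measured 6.86 to 39.4 CPM in wild-type and 6.53, 14.5 and 183 CPM in knockout mice. Il2rg, the common gamma chain, measured 86.4 to 154 CPM in wild-type and 113, 232 and 251 CPM in knockout mice. Cxcr6 measured 2.95 to 15.4 CPM in the wild-type group, against 0, 6.02 and 74.4 CPM in knockouts 1 to 3. Ccr4 was not tested, with at most 25 counts in a library and 0 counts in each knockout library. The fold change was positive for all 4 tested receptors (median 1.40), where 49.7% of all genes were positive. Of these receptors 0 of 4 passed, with 2 of 4 at an unadjusted p under 0.05, which 5.37% of all genes reached (edgeR adjusted p of at least 0.90).

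Lymphocyte markers were found in the same sorts. T cell markers, 8 of 8 detected, summed to 30.7, 75.8, 105 and 89.5 CPM in the wild-type group, and to 20.7, 67.4 and 470 CPM in knockouts 1 to 3. NK cell markers, 6 of 6 detected, summed to 24.2 to 82.6 CPM in wild-type and 29.5, 110 and 209 CPM in knockout mice. Knockout 3 was the highest for both sums and for Il2rb and Cxcr6, whereas Cxcr3 was highest in knockout 2. Cd8a and Cd3d were at 0 CPM in knockout 1. The part of lymphocytes in the receptor values was not tested.

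**Figure D5:**
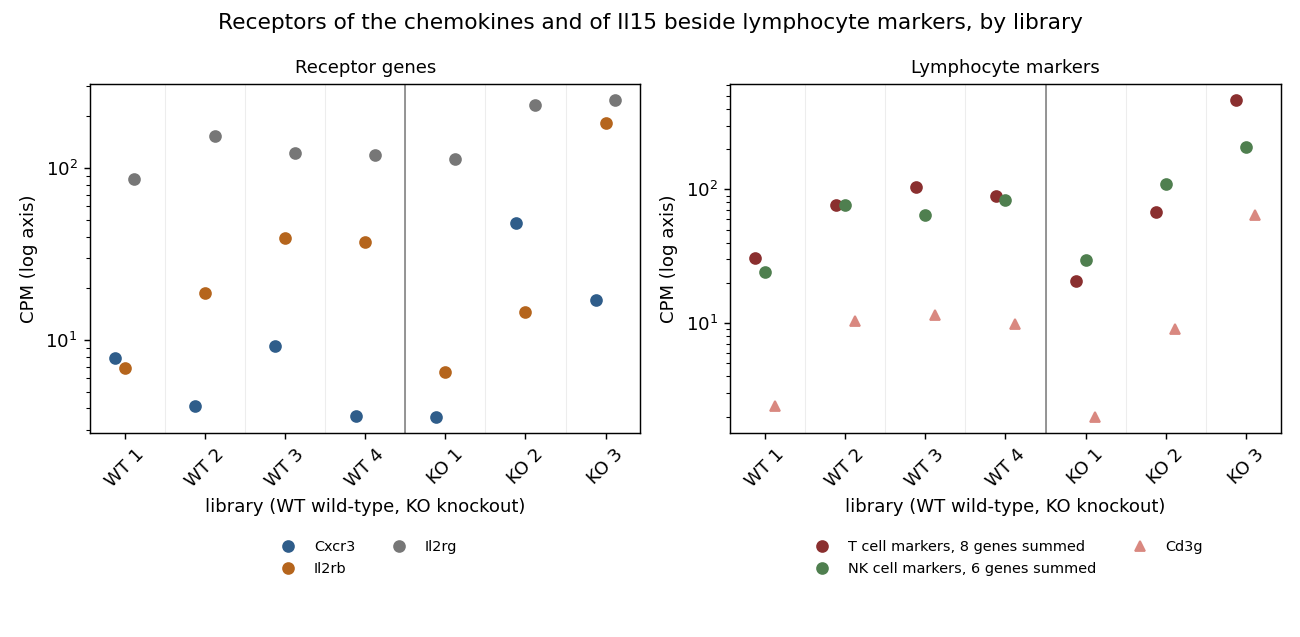
CPM (log axis) in each library of the receptor genes Cxcr3, Il2rb and Il2rg (left) and of summed T cell and NK cell markers with Cd3g, a chain of the T cell receptor complex (right). Knockout 3 has the highest Il2rb (183 CPM) and T cell sum (470 CPM), and knockout 2 the highest Cxcr3 (47.8 CPM).

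Genes that process or remove these chemokines did not pass, with 0 of 4 tested. In edgeR 1 of 4 had an unadjusted p under 0.05, which 5.37% of all genes reached. That gene was Ackr3, at 5.48 ± 3.56 CPM (SD, n = 4) in wild-type and 0.619 ± 0.677 CPM (SD, n = 3) in knockout mice. Its groups overlapped (log2 fold change -3.15, edgeR adjusted p = 0.84). Adam17 measured 223 ± 70.1 CPM (SD, n = 4) in wild-type and 255 ± 119 CPM (SD, n = 3) in knockout mice, and Adam10, the sheddase of Cxcl16, 240 ± 51.8 and 219 ± 62.9 CPM. The interferon gamma-inducible effectors had positive fold changes for 11 of 11 tested genes (median 0.55), where 49.7% of all genes did, and 0 passed. In edgeR 1 of 11 had an unadjusted p under 0.05 (5.37% of all genes). This was Irgm1, at 53.4 ± 10.9 CPM in wild-type and 81.1 ± 25.3 CPM in knockout mice, with groups that overlapped. Genes of a list can rise and fall together between mice, so counts of positive genes were not tested. The GTPases Gbp2 and Gbp7 measured 269 ± 131 and 349 ± 183 CPM, and 188 ± 33.3 and 255 ± 88.8 CPM. Ifng itself measured 0.166, 9.92, 3.95 and 11.3 CPM in the wild-type group, against 1.57, 1.59 and 29.8 CPM in knockouts 1 to 3, so that it was low in knockout 2, where Cxcl9 was highest.

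Of the NF-kB genes 9 of 10 had a positive fold change (median 0.12), where 49.7% of all genes did, and 0 were called. The inhibitor Nfkbia measured 399 ± 148 and 458 ± 174 CPM, and Tnfaip3, which encodes the deubiquitinase A20, 202 ± 68.5 and 326 ± 217 CPM. Signalling from interleukin-4 and GM-CSF, which induces Ccl17 and Ccl22, had positive fold changes for 5 of 11 tested genes (49.7% of all genes). The median was -0.05 and 0 were called. The receptor chains Csf2ra (610 ± 40.4 and 589 ± 86.1 CPM) and Il4ra (561 ± 46.8 and 570 ± 115 CPM) differed by less than the SD of either group. The chain Csf2rb measured 410 ± 76.2 and 339 ± 20.4 CPM (log2 fold change -0.27) and did not pass. Its knockout libraries all lay below the wild-type ones, as they did for 3.33% of all genes. Other lymphocyte attractants had 4 of 9 tested genes positive (49.7% of all genes), a median of -0.07 and 0 called. In edgeR 3 of 9 had an unadjusted p under 0.05 (5.37% of all genes). These were Ccl3, Ccl4 and Ccl5, all higher in knockout (2.57% of all genes). Ccl3 measured 67.9 ± 15.4 and 194 ± 38.4 CPM, and Ccl5 40.4 ± 26.0 and 166 ± 120 CPM. In that list Ccl4 measured 118 ± 37.0 and 471 ± 121 CPM (edgeR adjusted p = 0.14), and Ccl8 309 ± 511 and 213 ± 163 CPM. Other cytokines that support T and NK cells had 6 of 7 positive (49.7% of all genes), a median of 0.57 and 0 called. In edgeR 2 of 7 had an unadjusted p under 0.05 (5.37% of all genes). The interleukin-27 subunit Ebi3 measured 21.2 ± 9.38 and 40.7 ± 22.7 CPM. Tnfsf9, which did not reach that p, measured 42.8 ± 9.35 and 55.9 ± 17.0 CPM.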

How the data were processed

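The authors deposited a table of raw read counts per gene for the 7 libraries, made from polyA RNA with a SMART-seq kit per the labels' protocols. The submitters' processing notes name BWA 0.7.12, DESeq2 1.24.0, cutadapt 1.15 and FastQC 0.11.5 and the build GRCm38, and name no counting program. Genes were named by identifier from GENCODE M21 (53274 of 53379 matched).

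The genotypes were compared with edgeR 4.0.16 in R 4.3.3 (quasi-likelihood F test, robust). Libraries were scaled by TMM, genes with low counts were removed with filterByExpr, and p-values of the 16234 genes left were adjusted by Benjamini-Hochberg. The SE is the log2 fold change over the square root of F. Alternatives were other scalings and filters, DESeq2 1.42.0, limma 3.58.1 (voom with library weights), estimation that was not robust, the mouse number as a block, an adjusted p of 0.1 and each library left out. Log2 CPM used a prior count of 2. The test was tried on simulated counts. The mouse differs between libraries, and the p-values set the genotype difference against the spread between libraries within a genotype. Mouse, sort and library preparation cannot be told apart in that spread.

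The 8 genes and the gene lists were chosen with earlier results of these data known. Named were the 8 genes, the listed genes past the threshold or else the 2 with the highest mean CPM in a list, and the 3 genes with the largest r for each gene, with a mean log2 CPM of at least 3. Other genes were named after their values were seen. Of the 50-base words of the transcripts, 0.472% for Cxcl9, 0.237% for Cxcl11 and 0 for the other 6 also occur in other genes. Results that need certain other items are not reported here.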

Additional observations from a re-analysis of the deposited data

Results flagged for a closer look

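Among 96 sets of 4 wild-type values, 7 had 1 mouse set apart from the other 3 by a gap that took up most of the range. About 1 in 20 sets would be marked by chance. None of the 7 was one of the 8 genes. Wild-type 2 was the highest for the monocyte attractant Ccl8 (1068 CPM, 0.864 of the range), the receptor chain Csf2rb (524 CPM, 0.927), Il4 (1.08 CPM, 0.899) and the summed neutrophil markers (215 CPM, 0.891). Wild-type 1 was the lowest for Gbp5 (28.0 CPM, 0.895). Wild-type 4 was the lowest for Jak1 (199 CPM, 0.915) and the highest for Xcl1 (14.4 CPM, 0.860). Groups of 3 were not examined.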

How the results depend on the processing

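None of the 8 genes was called under any of the alternatives run. The number of genes called, 6, was 11 without a filter, 120 by DESeq2, 1 with the mouse number as a replicate block, and between 3 (without knockout 2) and 14 (without knockout 1) with 1 library left out. The number of the 8 genes with a positive fold change, 6, was 7 with the block and between 5 and 8 with 1 library left out. The sign changed for Ccl17 with the block (0.42) and without wild-type 2, for Ccl22 without wild-type 2 and for Cxcl16 without knockout 2. With 1 library left out, the log2 fold change ranged from -2.90 to 0.054 for Ccl17, from -2.12 to 0.062 for Ccl22 and from -0.023 to 0.54 for Cxcl16, and the cause was not tested. Scaling by library totals moved the median of all genes to -0.11 and kept each sign of the 8, with Cxcl10 at 0.62. Mice of the same number did not deviate together (r = 0.066, 0.051 and 0.088 over genes), so the numbers were not taken as pairs. The summed migratory dendritic cell markers differed by 135 CPM with Zmynd15 and by -135 CPM without it. With 43 to 376 counts per library, Cxcl11 is the gene whose values depth limits most.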

Other observations

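Cxcl13, an attractant of B cells and follicular helper T cells, was removed by the filter on low counts and so was not tested. It measured 0 to 0.332 CPM in the wild-type libraries and 0 in knockout 1, but 6.22 CPM in knockout 2 and 11.5 CPM in knockout 3. These were also the libraries with the highest Cxcl9, at 647 and 499 CPM. It was chosen after its values were seen. Among the 7 conventional dendritic cell markers, 3 had positive fold changes (Xcr1, Clec9a and Batf3) and 4 negative ones. Flt3 measured 1.22 to 8.51 CPM in knockout and 5.99 to 13.8 CPM in wild-type libraries, and Cd209a 1.54 to 4.44 and 1.54 to 8.68 CPM, and both had negative fold changes. The other negative ones were Itgae (log2 fold change -0.99) and Zbtb46 (-0.24). None of the 7 passed in edgeR, and 2 of 7, Xcr1 and Itgae, had an unadjusted p under 0.05, which 5.37% of all genes reached.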
